A study of Caenorhabditis elegans with 2 samples.

Results

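The genes described here are the 10 genes of the dosage compensation pathway of the nematode Caenorhabditis elegans named xol-1, sdc-1, sdc-2, sdc-3, dpy-21, dpy-30, dpy-26, dpy-27, dpy-28 and mix-1. They were taken by name from a deposited table of 46233 genes, and all 10 had a row in it. Total RNA of whole fourth-stage (L4) larvae grown at 25 °C was sequenced in 2 libraries. The wild type library came from strain N2, and the other came from strain VC2324, a mutant of flp-6, a gene for FMRFamide-like neuropeptides. The mutant allele, the number of animals in a library and the share of males are not given in the sources used here.

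In C. elegans, XX animals are hermaphrodites and XO animals are males. A dosage compensation complex binds both X chromosomes of hermaphrodites and lowers their transcription, so that X-linked genes give like amounts of RNA in both sexes. The core of the complex is a condensin, a ring-shaped machine that shapes chromosomes, and it is brought to X by the SDC proteins. The switch gene xol-1 is active in XO embryos and keeps sdc-2 off there, so that males do not assemble the complex on X. Several of its subunits also work in mitosis and meiosis in other condensins, and in the germ line X-linked genes are kept low by other chromatin regulators.

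There was 1 library per genotype. Differences therefore carry no error, no test was made, and they describe these 2 libraries. Levels are FPKM (fragment numbers divided by transcript length and by library size), which can be compared between genes. The sequencing depth is unknown, since no whole-read steps were found in the low values. A difference is the log2 of (mutant FPKM + 1) over (N2 FPKM + 1), on which scale low genes appear closer than they are. Genes averaging 1 FPKM or more over both libraries were taken as measured, and 2-fold on that scale was the threshold for a gene past it upward (above N2) or downward (below N2). The targeted gene flp-6 had 4.398 FPKM in the mutant and 57.95 FPKM in N2. All RNA came from whole larvae, in which fewer cells of a type and less RNA per cell cannot be told apart.

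Most of the dosage compensation genes were somewhat higher in the mutant library, and 1 of them reached 2-fold. Of the 10 genes 9 were measured, and sdc-2 was under 1 FPKM on average. Among the 9 measured genes 7 were higher in the mutant library and 2, sdc-3 and dpy-30, were lower. The median log2 difference of the 9 was 0.64, beside -0.10 over all 13436 measured genes. At 2-fold, 1 of 9 was higher, namely dpy-27, and 0 were lower. Over all measured genes 10.5% were past 2-fold upward, 11.3% were past it downward, and 44.3% were higher by any amount. The gene just inside the threshold was thus dpy-27 at 1.01, and the gene just outside it was dpy-21 at 0.96. Rescaling both libraries to the same FPKM sum moved the median of all measured genes by 0.45 and brought 5 of the 9 past 2-fold upward and 0 downward, beside 20.8% and 2.98% of all genes. With the log2 differences set against genes of like transcript length, as described below, 0 of the 9 were past 2-fold upward and 1, sdc-3, was past it downward.

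**Figure D1:**
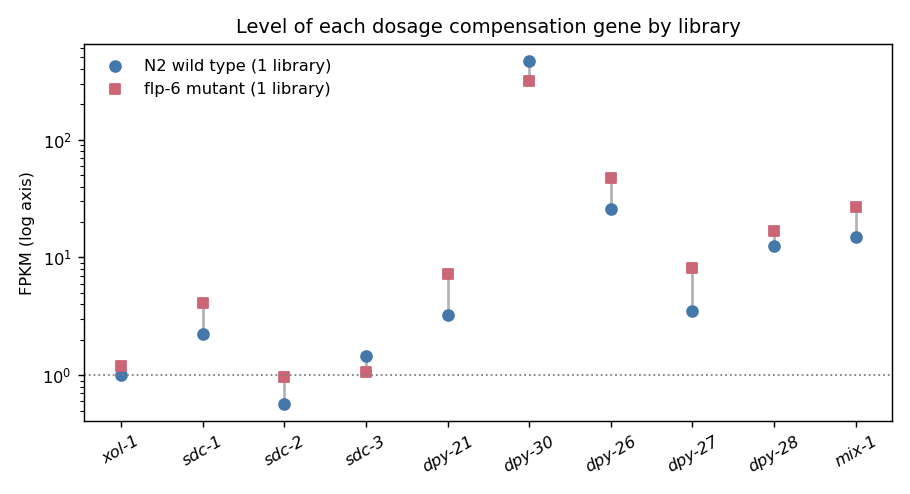
FPKM of the 10 dosage compensation genes on a log axis, with a circle for the N2 library, a square for the flp-6 mutant library and a dotted line at 1 FPKM. The levels run from under 1 FPKM for sdc-2 to 317 and 465 FPKM for dpy-30, and the squares lie below the circles for sdc-3 and dpy-30.

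The switch gene and the genes for the X-recruiting proteins had the lowest levels of the group. The male switch xol-1 lies on the forward strand of chromosome X from 8041313 to 8044409 (WBcel235) and has 3 annotated transcripts, the longest of 1980 nt in 7 exons. It had 1.19 FPKM in the mutant library and 1.005 FPKM in N2, a log2 difference of 0.13. Both values lie near the lower limit for a measured gene, and 5.38% of measured genes in the mutant library and 5.41% in N2 had a lower level. For xol-1 the libraries were therefore close to each other at a low level in both.

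The sdc-2 gene makes the protein that starts assembly of the complex on X in hermaphrodites and also helps to repress her-1, the male-determining signal. It lies on chromosome X from 11522707 to 11533450 on the forward strand, and its transcript of 9247 nt in 19 exons is the longest of the group. It had 0.964 FPKM in the mutant library and 0.569 FPKM in N2, and with a mean under 1 FPKM it was not counted as measured. A noncoding gene on the opposite strand, anr-16, overlaps sdc-2 by 1650 nt and had 0.456 and 0.159 FPKM. The library kit named in the labels does not mark strand, so that reads from sdc-2 and anr-16 cannot be told apart where their exons meet.

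The zinc finger protein genes sdc-1 and sdc-3, whose products act with SDC-2, went opposite ways. The sdc-1 gene, on chromosome X from 16275763 to 16282534 (forward strand, 3856 nt, 14 exons), had 4.07 FPKM in the mutant library and 2.25 FPKM in N2. Its log2 difference was 0.64. The sdc-3 gene, on chromosome V from 15039148 to 15048207 (reverse strand, 6774 nt, 15 exons), had 1.06 FPKM in the mutant library and 1.45 FPKM in N2. Its log2 difference was -0.25, and it turned to 0.04 after rescaling to equal FPKM sums. The ratio of sdc-1 to sdc-3, which does not depend on the scaling, was 3.84 in the mutant library and 1.55 in N2. The ratio of sdc-2 to sdc-1 was nearly the same in both, at 0.237 and 0.253. Within the SDC genes it was thus sdc-3 that stood apart between the libraries, at levels close to 1 FPKM and with an unknown number of reads behind them.

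The dpy-21 gene encodes a demethylase of the Jumonji family that acts on dimethylated lysine 20 of histone H4 on X. It lies on chromosome V from 17936282 to 17949193 on the reverse strand, with a longest transcript of 5666 nt in 11 exons. It had 7.29 FPKM in the mutant library and 3.27 FPKM in N2, a ratio of 2.23 and a log2 difference of 0.96. The noncoding gene Y59A8B.38, which spans 78 nt inside it on the opposite strand, was listed at 0.0001 FPKM, the placeholder for 0, in both libraries. The ratio of dpy-21 to dpy-27 was 0.904 in the mutant library and 0.937 in N2, so that this pair kept its proportion.

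The dpy-30 gene was the most abundant member and the shortest. Its product is a small subunit shared with the complexes that methylate lysine 4 of histone H3, and it is needed throughout the animal. The gene lies on chromosome V from 12191519 to 12192385 on the forward strand, and its longest transcript has 580 nt in 2 exons. It had 317 FPKM in the mutant library and 465 FPKM in N2, a log2 difference of -0.55. It lay above 96.5% of measured genes in the mutant library and above 96.7% in N2. It overlaps rnp-1 on the same strand by 113 nt, and rnp-1 went the other way, with 75.1 FPKM in the mutant library and 54.6 FPKM in N2. Set against genes of like length alone, the value of dpy-30 was 0. It turned to 0.38 when dpy-30 was set against genes of like length and like level.

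The genes of the condensin core were all higher in the mutant library as deposited. DPY-27 is the SMC subunit found only in the dosage compensation condensin, where it takes the place of SMC-4, and MIX-1 is the SMC partner shared by all condensins. The dpy-27 gene, on chromosome III from 3813018 to 3819679 (reverse strand, 5303 nt, 12 exons), had 8.06 FPKM in the mutant library and 3.49 FPKM in N2. The mix-1 gene, on chromosome II from 10824246 to 10841424 (forward strand, 4076 nt, 15 exons), had 26.9 FPKM in the mutant library and 15.1 FPKM in N2. Their log2 differences were 1.01 and 0.80. VM106R.1 lies within the span of mix-1 on the opposite strand, with 1.74 and 3.14 FPKM. M106.8 overlaps the end of mix-1 by 43 nt, again on the opposite strand, and was lower in the mutant library at 51.4 against 108.0 FPKM.

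The non-SMC subunits of the same condensin are the kleisin DPY-26, which closes the ring, and the HEAT-repeat protein DPY-28. The dpy-26 gene, on chromosome IV from 12445801 to 12451335 (reverse strand, 4238 nt, 10 exons), had 47.6 FPKM in the mutant library and 26.02 FPKM in N2. The dpy-28 gene, on chromosome III from 10763131 to 10777076 (forward strand, 4665 nt, 16 exons), had 16.8 FPKM in the mutant library and 12.4 FPKM in N2. Their log2 differences were 0.85 and 0.40. The end of dpy-26 overlaps C25G4.3 on the same strand by 84 nt, and C25G4.3 was lower in the mutant library, at 19.4 against 35.8 FPKM. Set against genes of like length, the difference of dpy-28 turned to -0.16.

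The proportions of the condensin subunits could be compared within each library, where the scaling has no part. The level of dpy-26 relative to mix-1 was 1.77 in the mutant library and 1.73 in N2, and that of dpy-28 was 0.624 and 0.827. The level of dpy-27 relative to its paralogue smc-4 was 14.9% in the mutant library and 14.02% in N2. Transcripts of the X-specific SMC subunit were thus scarce beside those of the general one in both libraries, and to nearly the same degree. Relative to mix-1, dpy-27 stood at 0.2999 in the mutant library and 0.232 in N2. With no replicate, none of these ratios has an error.

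The order of the 10 levels was almost the same in both libraries. From the top it was dpy-30, dpy-26, mix-1, dpy-28, dpy-27, dpy-21 and sdc-1 in each. At the bottom, xol-1 stood above sdc-3 in the mutant library and below it in N2, and sdc-2 was lowest in both. Without replicates it cannot be said which neighbours in this order differ beyond their spread. The summed level of all 10 genes was 431 FPKM in the mutant library and 531 FPKM in N2, and most of it came from dpy-30. Without dpy-30 the order of the sums was reversed, at 113.9 FPKM in the mutant library and 65.6 FPKM in N2.

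The differences of the members followed the lengths of their transcripts, as those of other genes did. Of 852 measured genes with a longest transcript over 3500 nt, 91.3% were higher in the mutant library and 18.5% were past 2-fold upward; their median log2 difference was 0.63. Of the 7 measured dosage compensation genes over 3500 nt, 6 were higher and 1 was past 2-fold; their median was 0.80. For each gene the median of genes of like length, in 40 bins of equal size, was then subtracted. After this 8 of the 9 genes lay within 0.3 of the median of their length, from -0.16 for dpy-28 to 0.29 for dpy-26. Among genes of like length dpy-28 lay above 34.2% and dpy-26 above 81.5%. The share of all genes within 0.3 was not counted, so this number is not read as a trait of the members. The median of the 9 was 0.12. The values of dpy-27, dpy-21, mix-1 and sdc-1 became 0.20, 0.15, 0.24 and 0.08. For comparison, 10.9% of 12999 genes were past 2-fold upward and 3.15% were past it downward after this step.

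The exception was sdc-3, whose length-centred difference was -1.06. Of the 325 genes with transcripts from 4817 to 25858 nt, 13 (4.0%) lay lower. Set against genes of like length and like level, sdc-3 stood at -0.75. At the other end dpy-26 lay above 81.5% of genes of its length and mix-1 above 76.6%. What makes the difference vary with length was not tested.

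**Figure D2:**
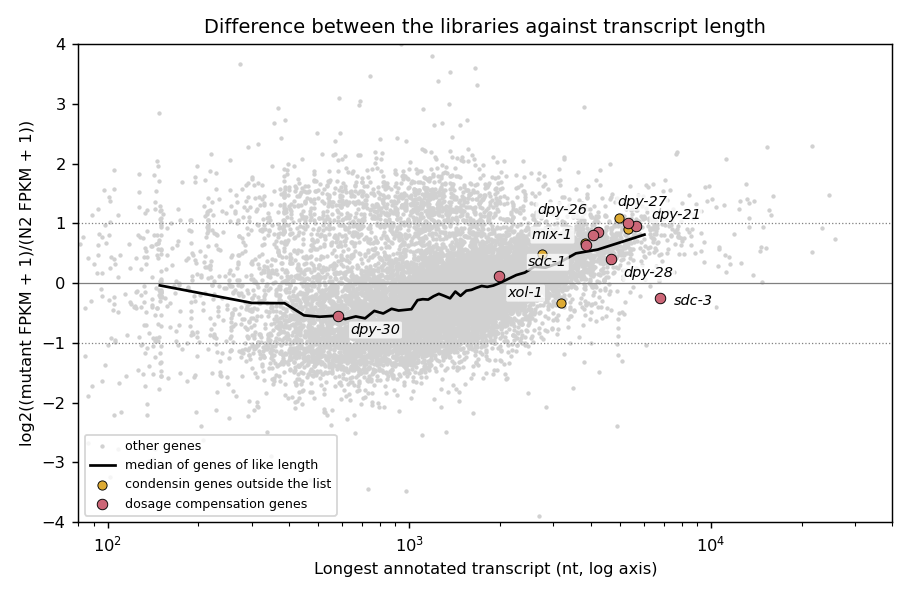
The log2 difference (mutant minus N2) against the length of the longest annotated transcript for 12999 genes, with the median of genes of like length as a line, dotted lines at 2-fold, and the dosage compensation and other condensin genes marked. The members lie near the line, from dpy-30 at -0.55 to dpy-27 at 1.01, while sdc-3 at -0.25 lies far below it. The axes leave out 10 genes beyond 4 on the log2 scale and 15 shorter than 80 nt.

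The authors also deposited a p-value and a q-value for each gene. Those values come from a comparison of these libraries and not of genotypes, so they are not read here as a result about the members. The authors' deposited table of genes past 2-fold held 715 genes, 1.55% of all, and 0 of the 10 members. Each gene in it also had a low deposited p-value, so the ratio alone did not decide. The smallest absolute log2 ratio in it was 1.11. The deposited log2 ratios of dpy-27 and dpy-21, without a pseudocount, were larger, at 1.21 and 1.16. Their absence from it therefore does not place them under 2-fold.

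The condensin genes outside the group had a median difference close to that of the 9 measured dosage compensation genes. SMC-4, CAPG-1, KLE-2, HCP-6 and CAPG-2 are subunits of the mitotic condensins, and CAPG-1 also belongs to the dosage compensation condensin. All 5 were measured, 4 were higher in the mutant library, and 1, smc-4, was past 2-fold at 54.04 against 24.9 FPKM. The capg-1 gene had 57.4 FPKM in the mutant library and 35.7 FPKM in N2, and hcp-6 had 26.8 and 13.8 FPKM. The lower gene was capg-2, with 35.3 FPKM in the mutant library and 44.7 FPKM in N2, and it stood at -0.67 after centring by length. The median of the 5 was 0.67, or 0.11 after centring by length, beside 0.64 and 0.12 for the 9 dosage compensation genes.

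Of the other SMC complexes, cohesin and the SMC-5/SMC-6 complex, 11 of 12 listed genes could be found in the table. Of these 11 genes 4 were past 2-fold upward and 0 downward, beside 10.5% and 11.3% of all measured genes. Their median was 0.47, or 0.20 after centring by length. The cohesin loader gene pqn-85 had 26.8 against 7.41 FPKM, and the cohesin kleisin gene coh-1 had 12.1 against 4.02 FPKM. After centring 1 of the 11, coh-1 at 1.12, was past 2-fold upward, beside 10.9% of all genes. The smc-6 and evl-14 genes had log2 differences of 1.07 and 1.01, or 0.57 and 0.20 after centring.

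The partners of DPY-30 in histone H3 lysine 4 methylation differed in both directions. Of 10 genes 3 were past 2-fold upward and 1 downward, and the median was 0.50, or 0.17 after centring. The methyltransferase gene set-2 had 22.1 FPKM in the mutant library and 7.97 FPKM in N2, the demethylase gene utx-1 had 8.67 and 2.95 FPKM, and pis-1 had 18.4 and 7.30 FPKM. On the lower side, swd-2.2 had 100.1 against 215.5 FPKM and rbbp-5 had 43.0 against 86.5 FPKM. After centring by length 0 of the 10 genes were past 2-fold, and rbbp-5 and swd-2.2 were lowest at -0.85 and -0.84. The level of dpy-30 relative to ash-2, another core subunit, was 9.01 in the mutant library and 20.7 in N2, and these genes differ in length.

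Genes for enzymes that act on histone H4 beside DPY-21 were lower as deposited. SET-1 and SET-4 add methyl groups to lysine 20 of histone H4, from which DPY-21 removes them. The set-1 gene had 87.1 FPKM in the mutant library and 198.5 FPKM in N2, a log2 difference of -1.18, and set-4 had 57.8 and 89.6 FPKM. The deacetylase gene sir-2.1 had 48.6 and 74.9 FPKM. The list of 7 genes, with the H2A variant gene htz-1 and the tethering genes cec-4, met-2 and set-25, had 1 gene past 2-fold downward and 0 upward. Its median of -0.36 became -0.22 after centring by length and turned to 0.15 after rescaling to equal FPKM sums.

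SUMO, a small protein tag that the condensin and SDC proteins carry when the complex assembles on X, is encoded by smo-1, which was past 2-fold downward as deposited. The smo-1 gene had 580 FPKM in the mutant library and 1515 FPKM in N2, a log2 difference of -1.38, or -0.82 after centring by length. The conjugating enzyme gene ubc-9 had 238 and 540.0 FPKM, or -0.89 after centring. The activating enzyme subunit gene aos-1 had 105.9 and 205.1 FPKM, while its partner uba-2 had 67.1 and 58.1 FPKM. Of the 9 SUMO pathway genes 3 were past 2-fold downward, smo-1, ubc-9 and ulp-5, and 0 upward. After centring by length 0 of 9 were past 2-fold in either direction, and the median of 0.13 turned to -0.16.

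**Figure D3:**
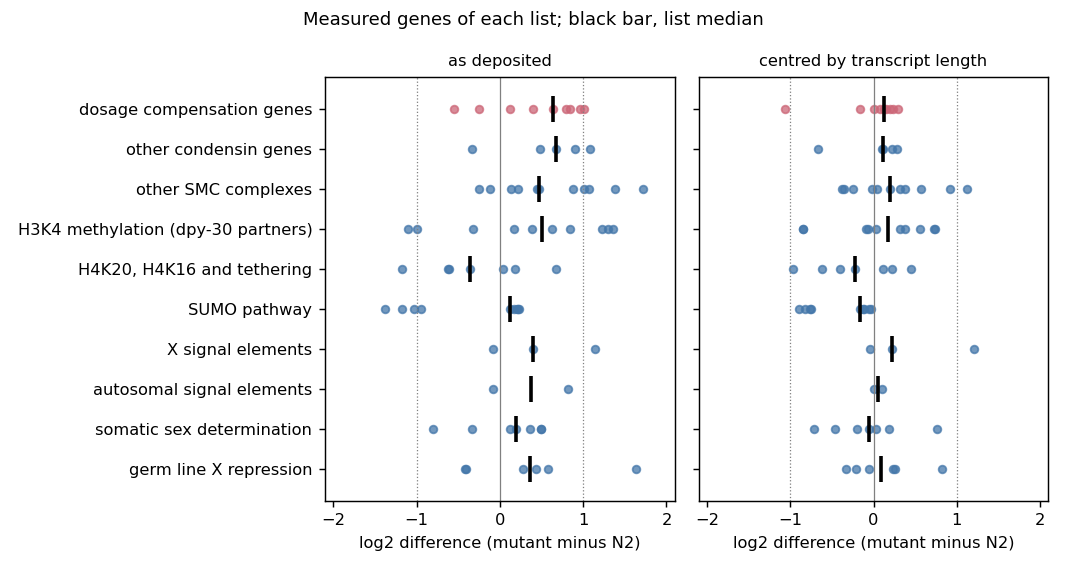
The log2 difference (mutant minus N2) of each measured gene in 10 lists, as deposited on the left and after centring by transcript length on the right, with black bars for list medians and dotted lines at 2-fold. The dosage compensation genes span -0.55 to 1.01 on the left, and on the right they run from -1.06 for sdc-3 to 0.29 for dpy-26.

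Upstream of xol-1, the X signal element genes encode proteins that repress xol-1 according to the number of X chromosomes. Of the 4 listed genes 3 were found under their listed names. The homeodomain gene ceh-39 was past 2-fold, with 12.9 FPKM in the mutant library and 5.32 FPKM in N2, and stood at 1.21 after centring by length. The nuclear receptor gene sex-1 had 8.84 and 9.39 FPKM, and the RNA-binding protein gene fox-1 had 5.59 and 4.02 FPKM. Of the autosomal signal elements, which activate xol-1, sea-1 had 9.47 and 10.1 FPKM and sea-2 had 3.26 and 1.41 FPKM. The difference of sea-2, 0.82, became 0.01 after centring by length.

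Downstream, 0 of 7 somatic sex determination genes were past 2-fold in either direction. The her-1 gene, repressed by the SDC proteins in hermaphrodites, had 1.54 FPKM in the mutant library and 0.804 FPKM in N2. Both values are low, and the log2 difference was 0.49. The receptor gene tra-2 had 15.9 and 12.1 FPKM, and the terminal regulator tra-1 had 9.74 and 6.60 FPKM. The fem-3 gene, which promotes male fates, had 57.3 and 100.6 FPKM, a log2 difference of -0.80. The median of the list was 0.20, and it turned to -0.06 after centring by length.

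In the germ line, X-linked genes are kept low by the MES proteins rather than by the complex. Of 6 genes of this kind 1 was past 2-fold, met-1, with 23.8 FPKM in the mutant library and 7.01 FPKM in N2, or 0.82 after centring. The Polycomb-like mes-2, mes-3 and mes-6 genes had log2 differences of 0.44, 0.28 and -0.41, and mes-4 had 0.57. Their list median was 0.36, or 0.09 after centring by length.

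On X, the chromosome on which the complex acts, the median difference over all measured genes was close to that of the autosomes, but the medians differed in opposite directions among weakly and strongly expressed genes. The median log2 difference of 1796 measured X-linked genes was -0.08, and that of 11500 genes on chromosomes I to V was -0.11. The medians of the 5 autosomes ran from -0.13 to -0.09. X-linked minus autosomal, the medians differed by 0.03, by 0.01 after centring by length and by -0.04 after centring by length and level. The median level of measured X-linked genes relative to that of autosomal genes was 0.407 in the mutant library and 0.435 in N2. Among genes averaging 5 FPKM or more they differed by 0.095. With a mean from 1 to 5 FPKM the median was -0.06 for X-linked and 0.09 for autosomal genes. With a mean from 5 to 20 FPKM the medians were -0.04 and -0.0023, and from 20 to 100 FPKM both were -0.17. Among genes of at least 100 FPKM they were -0.25 and -0.57, so that X-linked genes lay lower than autosomal ones at the weakest levels and higher at the strongest.

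X-linked genes differed from autosomal genes in how many were past 2-fold. Of X-linked genes 86 (4.79%) were past 2-fold upward, beside 1301 (11.3%) of autosomal genes. Each of the 5 autosomes had a larger share, from 8.72% on chromosome III to 15.4% on chromosome IV. Downward the shares were 8.02% (144 genes) for X and 11.9% for the autosomes. After rescaling to equal FPKM sums, the X-linked genes past 2-fold were 221 upward and 68 downward. After centring by length, 3.44% of X-linked and 12.03% of autosomal genes were past 2-fold upward, and 3.21% and 3.11% downward. At a threshold of 4-fold the shares past it, both directions together, were 2.78% for X and 2.79% for the autosomes. The directions were not alike. On X 15 genes were past 4-fold upward and 35 downward, while over all measured genes 217 (1.62%) were past it upward and 160 (1.19%) downward.

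The upward gap was widest among weakly expressed genes. With a mean from 1 to 5 FPKM, 4.46% of 672 X-linked and 19.4% of 3195 autosomal genes were past 2-fold upward, while downward the X-linked share was the larger, at 9.38% against 7.32%. With a mean from 5 to 20 FPKM the upward shares were 5.63% and 15.9% and the downward ones 5.63% and 8.09%. With a mean from 20 to 100 FPKM they were 4.598% and 5.19% upward and 8.62% and 12.4% downward. Among genes of at least 100 FPKM the larger gap was downward, with 11.03% of X-linked and 25.3% of autosomal genes past 2-fold, beside 2.94% and 2.43% upward.

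Sperm markers were also higher in the mutant library. Of 21 listed sperm markers 0 lie on X, 16 were measured, 16 were higher and 13 were past 2-fold, and the list's summed level was 836 FPKM in the mutant library and 345 FPKM in N2. Without genes with sperm names and germ line markers the upward shares were 4.71% for X and 11.01% for the autosomes. Many sperm genes carry no such name, and the part of the remaining ones in these shares was not tested.

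**Figure D4:**
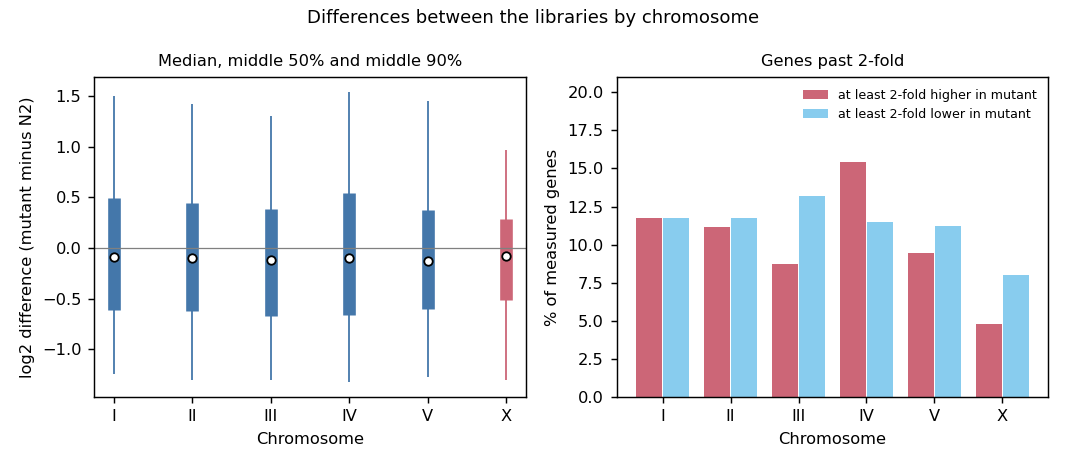
Log2 differences (mutant minus N2) of measured genes by chromosome, with a point for the median, a thick bar for the middle 50% and a thin line for the middle 90%, and beside it the share of genes past 2-fold in each direction. The X median of -0.08 lies beside those of the autosomes, and the X share past 2-fold upward is 4.79% against 8.72% or more on each autosome.

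The X-linked genes at both ends of the ranking were picked by their differences, so their sizes are not compared with those of the complex genes. Of X-linked genes averaging 5 FPKM or more, spat-3 had the largest upward difference, at 10.2 against 1.51 FPKM. Next came clec-86, a C-type lectin gene, at 50.0 against 11.1 FPKM, then C37E2.7, F59D8.3 and pqn-65. The lowest were F23A7.4 at 149 against 926 FPKM, F23A7.8 at 63.1 against 336 FPKM, F26A10.1, C14E2.12 and H29C22.1. Of these 10 genes, C37E2.7, F59D8.3, F23A7.4, F23A7.8 and C14E2.12 have transcripts of at most 207 nt, for which FPKM values are imprecise.

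Markers of tissues that the larvae hold were checked as lists beside the members. Germ line and oocyte markers, from a tissue of dividing cells, had a median of 0.26 over 15 measured genes, or 0.17 after centring by length. Of these 1, cbd-1, was past 2-fold upward at 503 against 221 FPKM, or 0.62 after centring. As deposited 9 of the 15 were higher and 6, the placeholder of rme-2 among them, were lower. The him-3 gene fell just short of 2-fold downward, at 90.9 against 182 FPKM, or -0.72 after centring. The yolk receptor gene rme-2 had 136 FPKM in N2 and was listed at the placeholder for 0 in the mutant library. Without rme-2 the summed level was 2689 FPKM in the mutant library and 2158 FPKM in N2. Muscle markers had 3 of 8 genes past 2-fold upward, myo-3, unc-54 and unc-15, a median of 0.33, and sums of 4142 FPKM in the mutant library and 3151 FPKM in N2. After centring by length 0 of the 8 were past 2-fold, and the median was 0.57. The intestinal marker asp-1 had 1961 FPKM in N2 and was, like rme-2, at the placeholder in the mutant library. With no read numbers, a placeholder of this kind can be a missing estimate, so rme-2 and asp-1 are not read as lower. Of the other 7 intestinal markers 1, cpr-1, was past 2-fold downward and 0 upward. Their median was 0.21, or 0.33 after centring by length, with sums of 1396 FPKM in the mutant library and 1288 FPKM in N2. With asp-1 the median was 0.09 and the N2 sum 3250 FPKM, so that the order of the sums rests on this gene. Of 10 neuronal and 6 measured hypodermal markers 0 were past 2-fold in either direction as deposited. Their medians were -0.29 and -0.56, or -0.15 and -0.04 after centring by length. After centring 1 neuronal marker was past 2-fold downward, unc-31 at -1.30, with 1.06 and 1.90 FPKM. Upward 0 neuronal markers were past it, and 0 hypodermal ones were past it in either direction. The sums of the neuronal and hypodermal lists were 181 against 216 FPKM and 1150 against 1458 FPKM. Most of the hypodermal sums came from a single gene, with 1057 FPKM in the mutant library and 1357 FPKM in N2. The part of such tissue differences, or of any difference in stage between the libraries, in the values of the complex genes was not tested.

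Markers of males and of early embryos, in which xol-1 is most active, were at or near 0. Of 9 male marker genes 8 were under 1 FPKM on average, the male neuron gene lov-1 was listed at 0.0001 FPKM in both libraries, and the list summed to 1.59 FPKM in the mutant library and 1.93 FPKM in N2. The remaining gene, mab-3, had 1.39 and 1.15 FPKM. Of 8 early embryonic genes 0 were measured, and they summed to 0.406 FPKM in the mutant library and 2.08 FPKM in N2. The highest of them was end-3, at 0.234 and 0.910 FPKM, and med-1 had the placeholder for 0 in both.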

How the data were processed

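RNA of whole L4 larvae was prepared with an organic reagent and made into TruSeq version 2 libraries, per the labels' protocols. The submitters' processing notes name TopHat, Cufflinks and build WBcel235, without versions or settings. FPKM values were normalized by the authors, who put 0.0001 for 0. Among measured genes 320 were at or under it in a library. The deposited ratio and log2 ratio are of mutant over N2 FPKM. The deposited p-value and q-value come from setting 1 library against the other. Whole reads were not recovered. FPKM times length lay within 0.1 of a whole step for 23.2% of low values (mutant) and 23.6% (N2), and chance gives 20%.

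Coordinates and longest transcripts come from Ensembl release 115 (WBcel235), in which 99.2% of the identifiers were found. A pseudocount of 1 FPKM was added before taking log2. Centring by length used 40 bins of equal size over 12999 genes above 0.0001 FPKM in both libraries, and centring by length and level 20 by 5 bins. It also removes any real difference shared by genes of like length. Members and lists were chosen with earlier results of these data known. By rule the text may name every member and gene of a related list, genes overlapping a member, up to 4 of the most different markers of a list, markers at 0, and the 5 highest and 5 lowest X-linked genes averaging 5 FPKM or more. The markers mab-3 and end-3 were named after their values were seen. Calculations were tested on simulated data. Python 3.11.15, numpy 2.4.6, pandas 2.3.3 and matplotlib 3.10.9 were used.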

Additional observations from a re-analysis of the deposited data

How the results depend on the processing

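With 1 library per genotype and an unknown depth, no value has an error. The depth limits most the genes near 1 FPKM, namely sdc-2, sdc-3, xol-1 and her-1. No paired analysis was possible because each genotype has 1 library. For the members past 2-fold (1 upward, 0 downward), the upward number was 2 with a pseudocount of 0.1 FPKM (13.2% of all genes) and 0 with a pseudocount of 5 FPKM (3.57%). It was 5 with equal FPKM sums (20.8% of all genes), 4 with equal upper quartiles (14%) and 3 with the median difference set to 0 (13.7%). It was 0 after centring by length (10.9%), with 1 downward (sdc-3, 3.15%), 0 after centring by length and level (9.75%), and 0 at 4-fold (1.62%). Of 96 values of single members recomputed under the alternatives, 4 turned sign. They were those of dpy-28 (both centrings, -0.16 and -0.39), dpy-30 (0.38, length and level) and sdc-3 (0.04, equal sums). A change of pseudocount or of the genes kept cannot turn a sign, so many of the 96 values could not have turned. Only rescaling and centring could turn one. For X-linked genes past 2-fold (86 upward, 144 downward), the numbers were 33 and 68 with a pseudocount of 5 FPKM, 56 and 81 at a mean of 5 FPKM or more, 221 and 68 with equal sums, and 15 and 35 at 4-fold. The downward number was 219 with a pseudocount of 0.1 FPKM, 56 after centring by length and 78 after centring by length and level. X-linked genes had a smaller share past the threshold than autosomal genes in 13 of 13 alternatives, though the shares were 2.78% and 2.79% at 4-fold. The X-linked minus autosomal median (0.03) was 0 without a filter, 0.095 at a mean of 5 FPKM or more, -0.0086 with equal sums and 0.016 with equal upper quartiles. It was 0.0085 after centring by length, -0.040 after centring by length and level, and 0.034 without genes at 0.0001 FPKM. The causes of these shifts were not tested.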
